A study of Mus musculus with 36 samples.

Results

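The 43 genes described here encode ribosome assembly factors and nucleolar proteins, and they were followed in livers of mice with or without a Vps15 deletion and in fibroblast cultures whose columns are headed CRE or GFP. Vps15, the product of the gene Pik3r4, is the regulatory partner of the lipid kinase Vps34 in class III phosphoinositide 3-kinase. The 43 genes were taken by name from a list of nucleolar proteins and ribosome assembly factors. The rule itself uses no measured value, but the genes were chosen with earlier results of these data known. All 43 were present among the 136300 gene entries of the liver table and the 32266 genes of the fibroblast table, and all 43 passed the filter on low values in both. They were ordered in 6 groups by textbook role: 3 proteins of the C/D box small nucleolar RNPs, 4 proteins of the H/ACA box RNPs, 6 subunits and factors of RNA polymerase I, 6 abundant nucleolar proteins, 12 factors of the small subunit and 12 factors of the large subunit. On GRCm38 (GENCODE vM21) the 4 genes described most are Nop56 (ENSMUSG00000027405, chromosome 2, 130274430 to 130279313, plus strand), Ddx21 (ENSMUSG00000020075, chromosome 10, 62580251 to 62602281, minus strand), Nop10 (ENSMUSG00000027133, chromosome 2, 112261926 to 112263269, plus strand) and Gnl3 (ENSMUSG00000042354, chromosome 14, 31012433 to 31019152, minus strand), all protein-coding.

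Poly(A) RNA had been sequenced from 12 livers and 24 mouse embryonic fibroblast (MEF) cultures, 3 libraries in each of 4 liver groups and 8 MEF groups, so every mean, SD and SE below rests on n = 3 libraries per group. The livers came from 4-week-old male mice killed at zeitgeber time 14, after lights off. Fasted Vps15LKO mice (genotype label Ttr CRE+, Vps15f/f) and fasted WT mice had been without food for 24 h, while fed Vps15LKO mice and fed WT mice ate ad libitum. The Ttr promoter, of the transthyretin gene, directs Cre to hepatocytes in liver, and the labels do not say whether the WT mice carried the floxed allele or Cre. All MEFs were Vps15f/f and had received an adenovirus with Cre (heading CRE) or with GFP (heading GFP). They were kept in serum-free basal medium, in methionine-free medium for 4 h, or in methionine-free medium for 4 h followed by methionine for 1 h or 4 h. The labels do not say whether MEF replicates were separate isolations, so p-values measure the spread between these libraries, which may be technical.

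As background, ribosomes are assembled in the nucleolus, where RNA polymerase I transcribes the rRNA precursor. C/D box RNPs guide ribose methylation of that precursor and H/ACA box RNPs guide its pseudouridylation, and a large set of helicases, scaffolds and processing factors cuts and folds it into a small and a large subunit. Many of these genes are known targets of MYC, a transcription factor of the E-box binding family, and in liver their output is known to follow growth and nutrient state.

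Promoter windows from RefSeq (GRCm38.p6, 250 bases before to 50 bases after each gene's start) were found for 38 of the 43 genes. The E-box CACGTG, which is its own reverse complement, was searched for in them. Some genes have several windows, and a gene counts as holding the E-box where at least 1 of its windows does. This was so for 8 of the 38 genes (21.1%), Ltv1, Mybbp1a, Wdr43, Rrn3, Nop2, Grwd1, Utp20 and Pes1, against 2187 of the 27025 genes in the table (8.09%). The windows below are shown because Ltv1, Mybbp1a and Wdr43 hold the E-box and were higher in fasted Vps15LKO livers, Rrn3 holds 2 copies, and Ddx21 had the largest liver difference of the 43 and no copy in its window. Capitals mark the E-box. They lie at chr10:13193088-13193387 on the minus strand (Ltv1), chr10:62602249-62602548 on the minus strand (Ddx21), chr11:72441077-72441376 on the plus strand (Mybbp1a), chr16:13780449-13780748 on the plus strand (Rrn3) and chr17:71615965-71616264 on the plus strand (Wdr43), each written 5′ to 3′ on the gene's strand.
Ltv1: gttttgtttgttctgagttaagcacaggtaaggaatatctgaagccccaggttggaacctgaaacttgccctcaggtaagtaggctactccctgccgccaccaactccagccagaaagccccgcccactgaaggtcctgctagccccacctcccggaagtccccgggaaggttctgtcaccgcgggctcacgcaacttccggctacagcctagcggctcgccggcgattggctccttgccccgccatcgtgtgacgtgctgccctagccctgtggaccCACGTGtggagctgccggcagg
Ddx21: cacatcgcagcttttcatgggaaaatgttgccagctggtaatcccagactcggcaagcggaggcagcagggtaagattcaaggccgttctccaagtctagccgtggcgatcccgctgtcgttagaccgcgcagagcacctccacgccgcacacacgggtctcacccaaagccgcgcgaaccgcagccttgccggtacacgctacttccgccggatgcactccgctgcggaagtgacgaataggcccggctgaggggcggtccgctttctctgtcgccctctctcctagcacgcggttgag
Mybbp1a: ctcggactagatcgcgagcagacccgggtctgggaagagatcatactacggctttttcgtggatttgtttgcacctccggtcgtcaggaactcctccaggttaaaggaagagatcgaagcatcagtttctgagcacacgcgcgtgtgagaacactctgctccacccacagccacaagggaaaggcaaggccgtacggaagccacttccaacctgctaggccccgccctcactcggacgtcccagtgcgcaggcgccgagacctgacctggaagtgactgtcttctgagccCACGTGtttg
Rrn3: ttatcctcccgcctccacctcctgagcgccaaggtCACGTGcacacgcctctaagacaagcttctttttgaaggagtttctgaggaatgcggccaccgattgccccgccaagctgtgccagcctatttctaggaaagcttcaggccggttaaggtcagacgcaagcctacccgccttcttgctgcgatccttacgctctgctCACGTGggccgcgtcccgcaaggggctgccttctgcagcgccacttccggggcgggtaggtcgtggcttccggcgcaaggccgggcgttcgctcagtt
Wdr43: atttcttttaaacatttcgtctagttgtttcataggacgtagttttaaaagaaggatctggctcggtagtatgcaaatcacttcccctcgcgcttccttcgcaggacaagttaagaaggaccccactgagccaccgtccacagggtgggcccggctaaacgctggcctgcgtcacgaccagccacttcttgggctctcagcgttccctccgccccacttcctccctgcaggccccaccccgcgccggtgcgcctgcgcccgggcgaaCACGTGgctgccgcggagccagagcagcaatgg

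The E-box begins at base 279 of the Ltv1 window, base 291 of the Mybbp1a window, base 268 of the Wdr43 window, and bases 36 and 203 of the Rrn3 window. A match describes these letters only. Of the 8 genes with the E-box, 5 were higher in fasted Vps15LKO than in fasted WT livers past the threshold used below, and of the 30 genes without it 17 were higher and 2 lower.

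The liver libraries held 9110836 to 12870944 counts and the MEF libraries 19345029 to 21245006 counts, and the 43 genes had 26 to 2820 counts each in single liver libraries and 483 to 51919 counts in single MEF libraries. No pair of libraries within a group was as close as sampling noise alone would give, with chi-square values per degree of freedom of 7.40 to 16.7 for liver pairs. Pik3r4 itself had 21.1, 24.0 and 18.2 CPM in fasted Vps15LKO livers, against 21.0, 24.7 and 21.2 CPM in fasted WT livers, and 24.6, 22.2 and 25.3 CPM in fed Vps15LKO livers, against 23.1, 17.6 and 22.9 CPM in fed WT livers (CPM, counts scaled to equal library totals). These groups overlapped, and counts over the whole gene do not check a deletion of some exons. The samples are whole powdered liver, labelled hepatocyte. On TMM-scaled library sizes, as for all liver levels here, the 17 hepatocyte markers found summed to 20861 to 24053 CPM in fasted Vps15LKO and 59522 to 61521 CPM in fasted WT livers, and to 20468 to 23986 CPM in fed Vps15LKO and 47188 to 49803 CPM in fed WT livers. The 18 macrophage markers summed to 3087 to 3627 CPM in fasted Vps15LKO and 706 to 966 CPM in fasted WT livers, and to 3639.6 to 4124 CPM in fed Vps15LKO and 2018 to 2570.0 CPM in fed WT livers. The 18 cell division markers summed to 117 to 147 CPM in fasted Vps15LKO and 48.6 to 50.8 CPM in fasted WT livers, and to 161 to 216 CPM in fed Vps15LKO and 71.1 to 100.4 CPM in fed WT livers, with 1 of the 18 at 0 in fasted WT livers. The part of these cell types in any difference below was not tested, and in bulk tissue fewer cells of a type and less RNA per cell cannot be told apart.

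In fasted liver, most of these genes were at higher levels in Vps15LKO than in WT mice. At an adjusted p under 0.05 (edgeR's quasi-likelihood test, Benjamini-Hochberg over all 23875 genes tested), 26 of the 43 were higher and 2 lower in fasted Vps15LKO than in fasted WT livers, while 28.2% of all tested genes were higher and 28.1% lower. The median log2 difference over the 43 was 0.50, against 0.01 over all tested genes. For 30 of the 43 every fasted Vps15LKO library lay above every fasted WT library, and for 4 every one lay below. How many of all tested genes separate in this way was not counted, here or in the comparisons below. The summed level of the 43 was 1734 ± 154 CPM in fasted Vps15LKO and 1208 ± 32.1 CPM in fasted WT livers (SD). TMM factors were 1.11 to 1.19 in fasted Vps15LKO and 0.801 to 0.806 in fasted WT livers. With library sizes alone in place of TMM scaling, the median of all genes moved to 0.52 on the log2 scale and 40 of the 43 were higher, so each value below is relative to the bulk of genes.

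Among the C/D box RNP proteins all 3 were higher in fasted Vps15LKO livers. Nop56, a core scaffold of these RNPs, had 32.8, 36.4 and 34.3 CPM in fasted Vps15LKO livers, against 16.8, 22.7 and 17.3 CPM in fasted WT livers. The groups did not overlap, and the log2 difference was 0.87 ± 0.17 (SE, adjusted p = 0.000447). Nop58, its partner in the core, had 22.8, 25.5 and 28.3 CPM in fasted Vps15LKO livers, against 17.4, 15.5 and 16.5 CPM in fasted WT livers. Every fasted Vps15LKO library again lay above the WT ones, with a log2 difference of 0.63 ± 0.17 (SE, adjusted p = 0.00543). Fbl, the methyltransferase fibrillarin, differed least, by 0.31 ± 0.10 (SE, adjusted p = 0.0194), and its call was lost without fasted Vps15LKO library c (or fasted WT library c).

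The H/ACA box proteins split. Gar1 and Nhp2 were higher, Nop10 was lower, and Dkc1, the pseudouridine synthase, had a log2 difference of 0.24 ± 0.18 (SE, adjusted p = 0.29). Gar1 had 10.3, 9.74 and 13.1 CPM in fasted Vps15LKO livers, against 4.90, 4.01 and 3.57 CPM in fasted WT livers. No fasted Vps15LKO library was under 9.74 CPM and no fasted WT library over 4.90 CPM, and the log2 difference was 1.40 ± 0.21 (SE, adjusted p = 3.3e-05). Nhp2 had 39.4, 41.4 and 51.6 CPM in fasted Vps15LKO livers, against 24.6, 17.7 and 15.9 CPM in fasted WT livers, without overlap, at 1.18 ± 0.17 (SE, adjusted p = 2.0e-05). Nop10, a small protein of the same particle, had 40.2, 52.9 and 47.3 CPM in fasted Vps15LKO livers, against 76.2, 73.2 and 63.9 CPM in fasted WT livers. Every fasted Vps15LKO library lay below the WT ones, at −0.60 ± 0.12 (SE, adjusted p = 0.000609), a call that was lost with library sizes alone.

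Of the RNA polymerase I group, Polr1c and Tcof1 were higher and Ubtf was lower, while Polr1a, Polr1b and Rrn3 did not pass. Tcof1, the nucleolar protein treacle that assists rDNA transcription, had 24.6, 29.9 and 23.9 CPM in fasted Vps15LKO livers, against 15.6, 15.0 and 15.8 CPM in fasted WT livers. The groups were well apart at 0.76 ± 0.12 (SE, adjusted p = 0.000103). Polr1c, a subunit shared with RNA polymerase III, had 19.4, 20.4 and 21.0 CPM in fasted Vps15LKO livers, against 15.3, 14.8 and 12.8 CPM in fasted WT livers, also without overlap, at 0.50 ± 0.13 (SE, adjusted p = 0.00341). Ubtf, the architectural factor of rDNA, had 41.5, 47.1 and 52.4 CPM in fasted Vps15LKO livers, against 61.1, 67.3 and 62.8 CPM in fasted WT livers. Each fasted Vps15LKO library was under each WT one and the log2 difference was −0.44 ± 0.12 (SE, adjusted p = 0.00529), but the call was lost with no filter on low values, and with library sizes alone its sign turned, to 0.07. The large subunits Polr1a and Polr1b had log2 differences of −0.15 and −0.12, and the initiation factor Rrn3 one of −0.11.

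Among the abundant nucleolar proteins 5 of 6 were higher, and this group held the largest difference of the 43. Ddx21, a DEAD-box RNA helicase that couples rDNA transcription to processing, had 88.0, 86.3 and 109 CPM in fasted Vps15LKO livers, against 26.8, 38.1 and 33.4 CPM in fasted WT livers. Its lowest fasted Vps15LKO library was well above its highest WT library, at 1.53 ± 0.17 (SE, adjusted p = 2.1e-06). Npm1, the histone and ribosome chaperone nucleophosmin, had 161, 179 and 208 CPM in fasted Vps15LKO livers, against 81.2, 73.2 and 85.5 CPM in fasted WT livers. The 2 groups did not come near each other, at 1.19 ± 0.15 (SE, adjusted p = 5.2e-06). Nucleolin (Ncl), nucleostemin (Gnl3) and Mybbp1a, a MYB-binding nucleolar protein, were higher by 0.85, 0.77 and 0.70 on the log2 scale. Nolc1, a chaperone of small nucleolar RNPs, overlapped between groups at 0.24 ± 0.19 (SE, adjusted p = 0.30).

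Small-subunit factors were higher in 8 of 12 cases and large-subunit factors in 6 of 12, and none of these 24 was lower past the threshold. Ltv1, a late small-subunit assembly factor, had 24.9, 24.4 and 37.2 CPM in fasted Vps15LKO livers, against 14.6, 14.2 and 12.4 CPM in fasted WT livers. Fasted Vps15LKO library c stood highest, the other 2 still lay above the WT libraries, and the difference was 1.07 ± 0.19 (SE, adjusted p = 0.000182). Noc4l, a small-subunit processome protein, had 25.6, 21.4 and 31.2 CPM in fasted Vps15LKO livers, against 14.8, 16.4 and 15.3 CPM in fasted WT livers, without overlap, at 0.75 ± 0.15 (SE, adjusted p = 0.000723). The remaining small-subunit genes past the threshold were Rrp9 (0.87), Rrp12 (0.78), Wdr43 (0.66), Utp15 (0.57), Nop14 (0.41) and Wdr75 (0.39), and Wdr75 lost its call without any 1 of 5 libraries (all but fasted WT library b), as well as in DESeq2 and among Ensembl genes alone. Ddx10, Utp20, Heatr1 and the rRNA acetyltransferase Nat10 did not pass.

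On the large-subunit side, Noc2l, a ribosome precursor export factor, had 62.2, 61.9 and 75.1 CPM in fasted Vps15LKO livers, against 36.0, 36.3 and 40.8 CPM in fasted WT livers. The groups did not overlap, at 0.82 ± 0.12 (SE, adjusted p = 4.2e-05). Pes1, which forms the PeBoW complex with Bop1 and Wdr12, had 57.8, 49.2 and 68.2 CPM in fasted Vps15LKO livers, against 42.3, 41.1 and 39.0 CPM in fasted WT livers. Its libraries were also apart, at 0.52 ± 0.12 (SE, adjusted p = 0.00246). Wdr12 was higher by 0.61, while Bop1 had a difference of 0.30 ± 0.13 (SE, adjusted p = 0.056) that did not pass. The other large-subunit calls were Rrp1b (0.69), Grwd1 (0.53) and Nip7 (0.48). Rrp1b lost its call without fasted Vps15LKO library c or fasted WT library b, and Nip7 without fasted Vps15LKO library b or c or fasted WT library b or c.

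**Figure D1:**
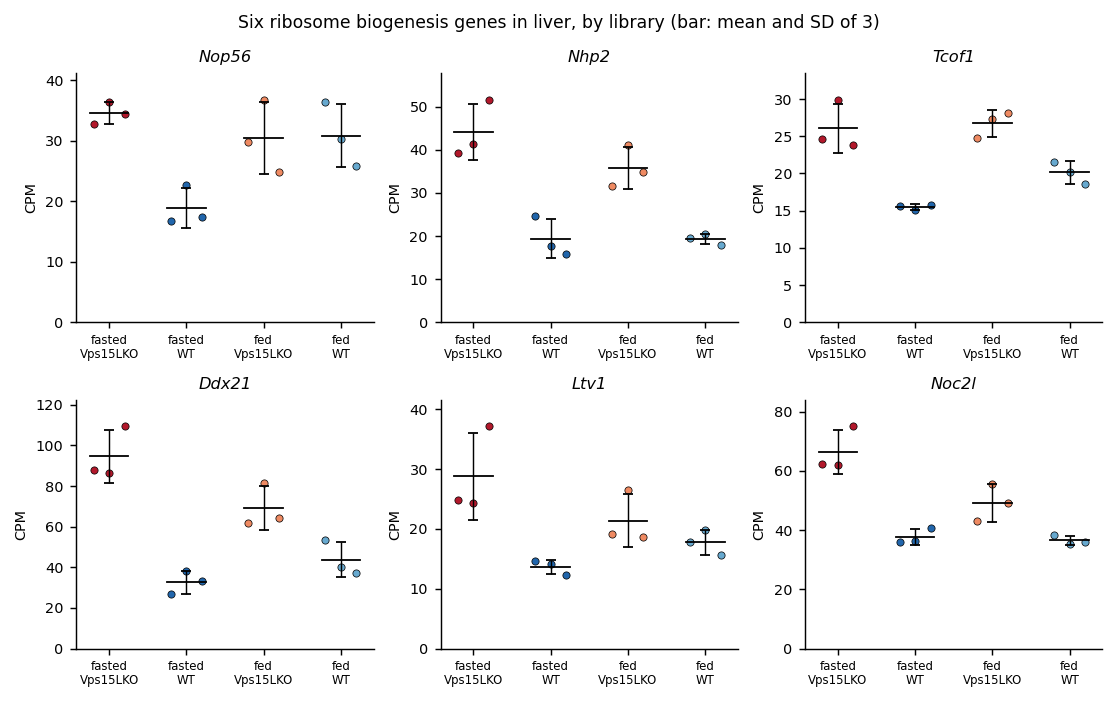
Level of 6 of the genes in each liver library (CPM, y axis from 0) in fasted Vps15LKO, fasted WT, fed Vps15LKO and fed WT livers, with a point for each library and bars for the mean and SD of 3. Ddx21 lies between 86.3 and 109 CPM in fasted Vps15LKO livers and between 26.8 and 38.1 CPM in fasted WT livers, and the fed groups lie closer together.

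In fed liver fewer of the genes differed between genotypes. By edgeR's test 10 of the 43 (23.3%) were higher and 3 (6.98%) lower in fed Vps15LKO than in fed WT livers, against 23.4% higher and 23% lower of all tested genes, so the share of higher genes was near that background. With library sizes alone the split was 28 higher and none lower, and the median difference of all genes was then 0.39, against 0.01 with TMM factors. The median over the 43 was 0.11. For 9 of the 43 every fed Vps15LKO library lay above every fed WT library, and for 5 every one lay below. This separation was not counted over all tested genes. The summed level was 1455 ± 108 CPM in fed Vps15LKO and 1291 ± 153 CPM in fed WT livers.

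All 10 genes higher in fed Vps15LKO livers were among the 26 that were higher in fasted ones: Nhp2, Npm1, Ddx21, Gar1, Utp15, Ncl, Gnl3, Pes1, Noc2l and Tcof1. These 10 are 23.3% of the 43, while over all tested genes 4397 of 23875 (18.4%) were higher in both. Of the 5577 tested genes that were higher in fed liver, those 4397 were also higher in fasted liver. Nhp2 had 31.6, 41.2 and 34.8 CPM in fed Vps15LKO livers, against 19.5, 20.4 and 18.0 CPM in fed WT livers. Its fed groups did not overlap, at 0.89 ± 0.16 (SE, adjusted p = 0.000358). Npm1 had 102, 144 and 115 CPM in fed Vps15LKO livers, against 75.2, 58.4 and 67.3 CPM in fed WT livers, again apart, at 0.84 ± 0.14 (SE, adjusted p = 0.000207). Ddx21 had 61.7, 81.6 and 64.1 CPM in fed Vps15LKO livers, against 53.5, 40.2 and 37.4 CPM in fed WT livers. The lowest fed Vps15LKO library lay just above the highest fed WT one, and the difference was 0.66 ± 0.17 (SE, adjusted p = 0.00423). Gar1, Gnl3, Utp15, Noc2l and Tcof1 passed at log2 differences of 0.58, 0.48, 0.56, 0.43 and 0.41, and each lost its call in at least 1 leave-one-out fit: Gar1 without fed Vps15LKO library a or fed WT library b or c, Gnl3 without fed Vps15LKO library b or c or fed WT library b or c, Utp15 without fed WT library b, Noc2l without fed Vps15LKO library b, and Tcof1 without fed WT library c and with no filter on low values.

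Nop10 was the 1 gene of the 43 (2.33%) lower in both states, against 4239 of 23875 tested genes (17.8%). It had 45.5, 38.1 and 41.7 CPM in fed Vps15LKO livers, against 62.2, 57.6 and 57.0 CPM in fed WT livers. Every fed Vps15LKO library lay below, at −0.50 ± 0.12 (SE, adjusted p = 0.00358). Nop16, a large-subunit factor in yeast, had 21.6, 20.9 and 21.3 CPM in fed Vps15LKO livers, against 40.4, 30.3 and 27.3 CPM in fed WT livers. These groups did not overlap, at −0.62 ± 0.14 (SE, adjusted p = 0.00169). Nat10 was lower, with a difference of −0.43 ± 0.12 (SE, adjusted p = 0.00905), a call lost without fed Vps15LKO library c, and these 3 calls were lost with library sizes alone. Several genes that were higher in fasted Vps15LKO livers had fed values near 0: Nop56 differed by −0.02 ± 0.16 (SE, adjusted p = 0.94), Nop58 by 0.07 ± 0.17 (SE, adjusted p = 0.77) and Mybbp1a by 0.08 ± 0.13 (SE, adjusted p = 0.64).

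**Figure D2:**
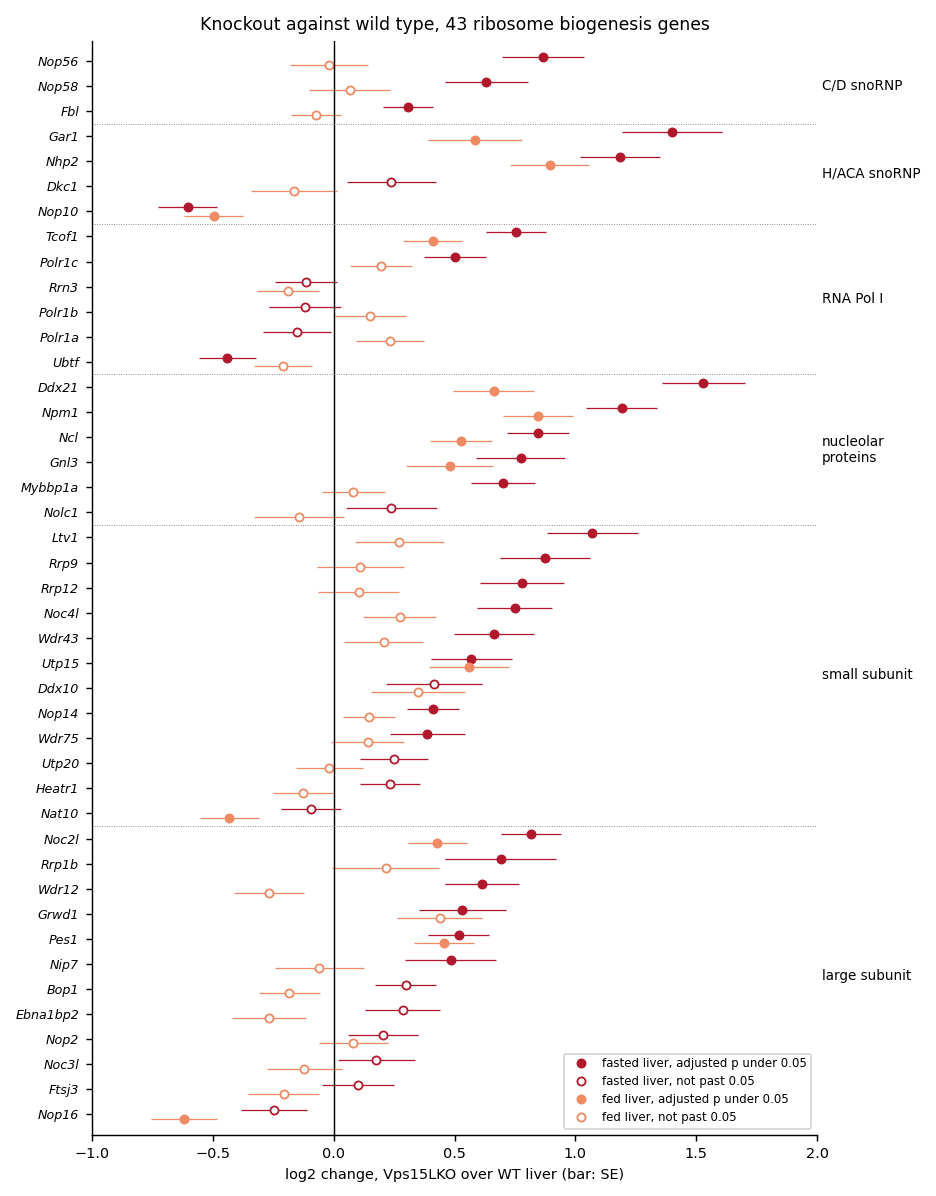
Log2 difference of Vps15LKO over WT livers for each of the 43 genes (x axis), fasted and fed, with SE bars and filled points where the adjusted p is under 0.05. In fasted liver 26 genes are filled to the right of 0 and 2, Nop10 and Ubtf, to the left, while in fed liver 10 are filled to the right and 3 to the left.

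The fasting comparisons use the same libraries as the genotype comparisons above, so their values are given side by side and not as independent results. In fasted against fed Vps15LKO livers no member passed in edgeR, while 0.792% of all tested genes were higher and 0.599% lower at the same adjusted threshold. DESeq2 called 2 members, both higher. The edgeR count was 1 without fasted Vps15LKO library b or fed Vps15LKO library b, and 3 among Ensembl genes alone. Without adjustment 13 members had a p under 0.05 in edgeR. How many of all tested genes had an unadjusted p under 0.05 was not counted, here or in the comparisons below. The log2 differences of 37 of the 43 were positive, with a median of 0.21, against −0.02 over all tested genes. The largest was that of Npm1, with 161, 179 and 208 CPM in fasted Vps15LKO livers, against 102, 144 and 115 CPM in fed Vps15LKO livers. All fasted libraries lay above the fed ones, at 0.60 ± 0.14 (SE, adjusted p = 0.0514).

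In fasted against fed WT livers 4 members fell and none rose in edgeR (11 had an unadjusted p under 0.05, and DESeq2 called 3, all lower), against 12.4% higher and 14% lower of all tested genes, so the members' 9.30% lower is not above that background. The median was −0.16, against −0.01 over all tested genes, and 30 of 43 differences were negative. Nop56 had 16.8, 22.7 and 17.3 CPM in fasted WT livers, against 36.4, 30.3 and 25.9 CPM in fed WT livers. The fasted WT libraries all lay below the fed WT ones, at −0.70 ± 0.17 (SE, adjusted p = 0.00678). Wdr12 had 8.89, 8.89 and 7.15 CPM in fasted WT livers, against 14.5, 11.6 and 11.9 CPM in fed WT livers, also without overlap, at −0.61 ± 0.16 (SE, adjusted p = 0.00969). Rrp12, a maturation factor of small-subunit precursors in yeast, had 9.92, 10.9 and 9.21 CPM in fasted WT livers, against 16.3, 16.1 and 11.1 CPM in fed WT livers. It was lower in each fasted library, at −0.53 ± 0.18 (SE, adjusted p = 0.0388). Tcof1 had 15.6, 15.0 and 15.8 CPM in fasted WT livers, against 21.6, 20.2 and 18.6 CPM in fed WT livers, and its difference was −0.38 ± 0.13 (SE, adjusted p = 0.0394). The count of 4 fell to 2, Nop56 and Wdr12 only, without fasted WT library a or c or fed WT library a or b. Among Ensembl genes alone 6 passed, the same 4 lower and Ubtf (0.34) and Nop10 (0.31) higher.

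Other genes singled out by size in WT liver did not pass. Gar1 had 4.90, 4.01 and 3.57 CPM in fasted WT livers, against 7.38, 5.45 and 4.78 CPM in fed WT livers, with overlap, at −0.49 ± 0.22 (SE, adjusted p = 0.11). Ddx21 had 26.8, 38.1 and 33.4 CPM in fasted WT livers, against 53.5, 40.2 and 37.4 CPM in fed WT livers, at −0.42 ± 0.17 (SE, adjusted p = 0.0895). Mybbp1a (−0.30 ± 0.13 SE, adjusted p = 0.11), Nop58 (−0.31 ± 0.17 SE, adjusted p = 0.21) and Bop1 (−0.27 ± 0.13 SE, adjusted p = 0.13) had fasted libraries that overlapped the fed ones. Nat10 had 19.6, 21.9 and 20.9 CPM in fasted WT livers, against 25.0, 28.0 and 23.2 CPM in fed WT livers, at −0.29 ± 0.13 (SE, adjusted p = 0.11). Ubtf and Nop10 had positive differences of 0.30 ± 0.12 (SE, adjusted p = 0.0759) and 0.27 ± 0.12 (SE, adjusted p = 0.12), and for these alone of the 43 every fasted WT library lay above every fed WT library.

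Whether the fasting change differed between the 2 genotypes was tested as an interaction, the fasting change in Vps15LKO minus that in WT livers. In all, 4 members passed, each with a positive value, against 12.1% of all tested genes in either direction. Nop56 changed by 0.18 with fasting in Vps15LKO and −0.70 in WT livers, an interaction of 0.89 ± 0.23 (SE, adjusted p = 0.0224). Wdr12 changed by 0.27 in Vps15LKO and −0.61 in WT livers, an interaction of 0.88 ± 0.21 (SE, adjusted p = 0.0136). Ddx21 changed by 0.45 in Vps15LKO and −0.42 in WT livers with an interaction of 0.87 ± 0.24 (SE, adjusted p = 0.0269). Mybbp1a changed by 0.32 in Vps15LKO and −0.30 in WT livers, with an interaction of 0.62 ± 0.18 (SE, adjusted p = 0.0406). The interaction was positive for 39 of 43, with a median of 0.35, against 0.01 over all tested genes, and 14 had an unadjusted p under 0.05. The count of 4 fell to 2 without fasted Vps15LKO library c or fasted WT library c, and to 1 without fasted WT library a, fed Vps15LKO library a or c, or fed WT library a, and it was 10 with library sizes alone. Wdr12 alone passed in each of those fits.

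**Figure D3:**
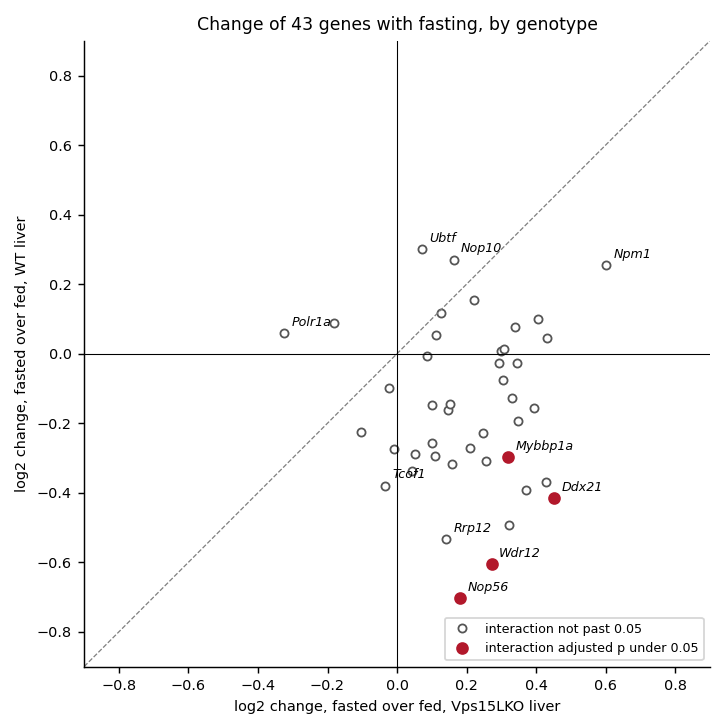
Log2 change with fasting in Vps15LKO livers (x axis) and in WT livers (y axis) for the 43 genes, with the line of equal change dashed and the 4 genes past the interaction threshold in red. Most points lie under the line, and Nop56, Wdr12, Ddx21 and Mybbp1a are among the farthest from it. The axes share no library.

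Related genes outside the 43 were followed in the same comparisons. Of 85 other ribosome assembly factors tested, 36 were higher and 5 lower in fasted Vps15LKO against fasted WT livers (median 0.30), and 11 were higher and 9 lower in the fed comparison (median 0.04). Those with the smallest p in fasted liver were the helicase Dhx37 (1.17), the subunit anti-association factor Eif6 (1.50) and the helicase Ddx54 (0.83). Of 77 cytosolic ribosomal protein genes, 34 were higher and 1 lower in fasted (median 0.29) and 41 higher in fed liver (median 0.34), Rps15a and Rpl12 by 0.57 and 0.66 in fasted liver. Ribosomal protein genes have many near-identical pseudogenes, so their counts are uncertain. Of 11 other RNA polymerase I genes 5 were higher and 2 lower in fasted liver and 3 higher and 1 lower in fed liver, and of 22 RNA polymerase III genes 6 were higher and 6 lower in fasted liver and 2 higher and 4 lower in fed liver. Nucleotide synthesis genes gave 8 higher and 4 lower of 20 in fasted liver and 6 and 5 in fed liver, with the CTP synthase Ctps at 2.43 and the purine enzyme Paics at −1.17.

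Within the MYC network 4 of 10 genes were higher and 3 lower in fasted liver, and 4 higher and 1 lower in fed liver. Myc had 136, 113 and 166 CPM in fasted Vps15LKO livers, against 18.7, 19.4 and 15.9 CPM in fasted WT livers, and 105, 87.7 and 88.0 CPM in fed Vps15LKO livers, against 15.0, 12.1 and 27.7 CPM in fed WT livers. Every Vps15LKO library lay far above every WT one in both states, at 2.94 ± 0.24 (SE, adjusted p = 9.0e-08) in fasted and 2.35 ± 0.23 (SE, adjusted p = 1.2e-06) in fed liver. Its relative Mycl had a log2 difference of −3.34 in fasted liver. Whether Myc takes part in the differences of the 43 genes was not tested.

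Markers of other cells moved with genotype and fasting as well. In fasted liver, Vps15LKO over WT, all 17 hepatocyte markers were lower (median −1.38), all 18 macrophage markers higher (1.72), 15 of 18 cell division markers higher (2.60), 8 of 10 neutrophil markers higher, 4 of 9 lymphocyte markers higher, 7 of 8 bile duct markers higher, 8 of 13 stellate cell markers higher and 1 lower, 4 of 10 endothelial markers higher and 2 lower, and 1 of 8 erythroid markers higher and 2 lower. In fed liver 16 of 17 hepatocyte markers were lower (median −1.21), 16 of 18 macrophage markers higher (0.66), 15 of 18 cell division markers higher (2.08), 5 of 10 neutrophil markers higher, 1 of 9 lymphocyte markers higher and 1 lower, 2 of 8 bile duct markers higher and 1 lower, 9 of 13 stellate cell markers higher, 4 of 10 endothelial markers higher and 2 lower, and 3 of 8 erythroid markers lower. In fasted against fed WT livers all 18 macrophage markers were lower (median −1.48), 9 of 10 neutrophil markers lower (−3.46), 8 of 18 cell division markers lower (−1.40), 3 of 9 lymphocyte markers lower, 6 of 10 endothelial markers lower, 5 of 13 stellate cell markers lower, 1 of 8 bile duct markers higher and 3 lower, 1 of 8 erythroid markers higher and 2 lower, and 7 of 17 hepatocyte markers higher (0.26). In fasted against fed Vps15LKO livers 1 macrophage, 1 cell division and 1 hepatocyte marker were lower and no other marker passed. The interaction was positive for 14 of 18 macrophage markers (median 1.07), 3 of 10 neutrophil markers (2.35), 1 of 18 cell division markers, 1 of 9 lymphocyte markers, 1 of 10 endothelial markers, 3 of 13 stellate cell markers and 2 of 8 bile duct markers, negative for 4 of 17 hepatocyte markers (−0.31), and positive for 2 and negative for 1 of 8 erythroid markers. Their part in the differences of the 43 genes was not tested.

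Per kilobase of exon, levels in fed WT livers spanned from 53.1 ± 2.58 CPM per kb for Nop10 and 25.1 ± 3.15 for Npm1 down to 1.07 ± 0.332 for Rrp1b and 1.06 ± 0.137 for Wdr12 (SD). Rrp1b and Wdr12 did not differ beyond their spread. Reads from a gene and an overlapping gene on the opposite strand may be mixed, since the strand setting of the counting is not given in the sources used here. Such exon overlaps touched 16 of the 43, the longest being 598 bases between Noc2l and Samd11.

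In the MEF table the columns are named by vector and medium, and Mat2a went against those names, so groups are given by heading. Values there are on the authors' variance-stabilised log2 scale. Mat2a, the methionine adenosyltransferase gene whose mRNA is known to rise when methionine or its product S-adenosylmethionine is low, had mean values of 13.60 and 12.34 under CRE and GFP basal, 13.59 and 12.17 under CRE and GFP deprived, 11.80 and 13.89 under CRE and GFP 1 h, and 11.43 and 13.77 under CRE and GFP 4 h. The GFP libraries headed deprived thus held less Mat2a than those headed 1 h or 4 h after methionine, and under basal and deprived the CRE columns held the higher values. Myc differed between CRE and GFP in the same direction as Mat2a under each heading, at 12.96 and 11.39 under CRE and GFP basal, 13.16 and 11.19 deprived, 11.36 and 13.77 at 1 h, and 11.19 and 13.95 at 4 h. The headings below therefore serve as names of columns, and no direction is ascribed to methionine or to Vps15. Pik3r4 differed between CRE and GFP by 0.23, 0.21, 0.15 and 0.05 on the log2 scale in the order of the headings, which does not check the deletion.

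Library 3 of CRE 4 h stood apart: its chi-square per degree of freedom against its 2 group mates was 18.0 and 20.0, against 1.89 to 5.14 for every other pair of MEF libraries within a heading, and its Mat2a value was 10.85 against 11.73 and 11.70. Counts of the 43 genes called in comparisons with CRE 4 h are given with and without it, while the patterns over headings and the list counts at 4 h include it. The 13 fibroblast and stellate cell markers summed to 5191 to 8522 CPM over all MEF libraries, against 76.9 to 115 CPM for the 16 hepatocyte markers present and 7.43 to 13.8 CPM for the 11 macrophage markers present. In CRE against GFP, of the 8 fibroblast markers tested 1 was higher and 1 lower at basal, 5 were lower in deprived libraries, 1 was higher and 2 lower at 1 h, and 1 was higher and 1 lower at 4 h.

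The 43 genes varied more over the 8 headings than genes in general did, with a median range of heading means of 0.59 against 0.48 on the log2 scale over 13914 tested genes, as a description. GFP deprived was the lowest heading for 36 of the 43. GFP 4 h was the highest for 19 and CRE 4 h for 10. The lowest and highest headings were not counted over all tested genes. The summed level was 9438 ± 266 CPM under CRE basal and 8031 ± 169 under GFP basal, 9928 ± 132 under CRE deprived and 7643 ± 239 under GFP deprived, 9170 ± 112 under CRE 1 h and 9859 ± 234 under GFP 1 h, and 9388 ± 153 under CRE 4 h and 10171 ± 256 under GFP 4 h (SD).

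**Figure D4:**
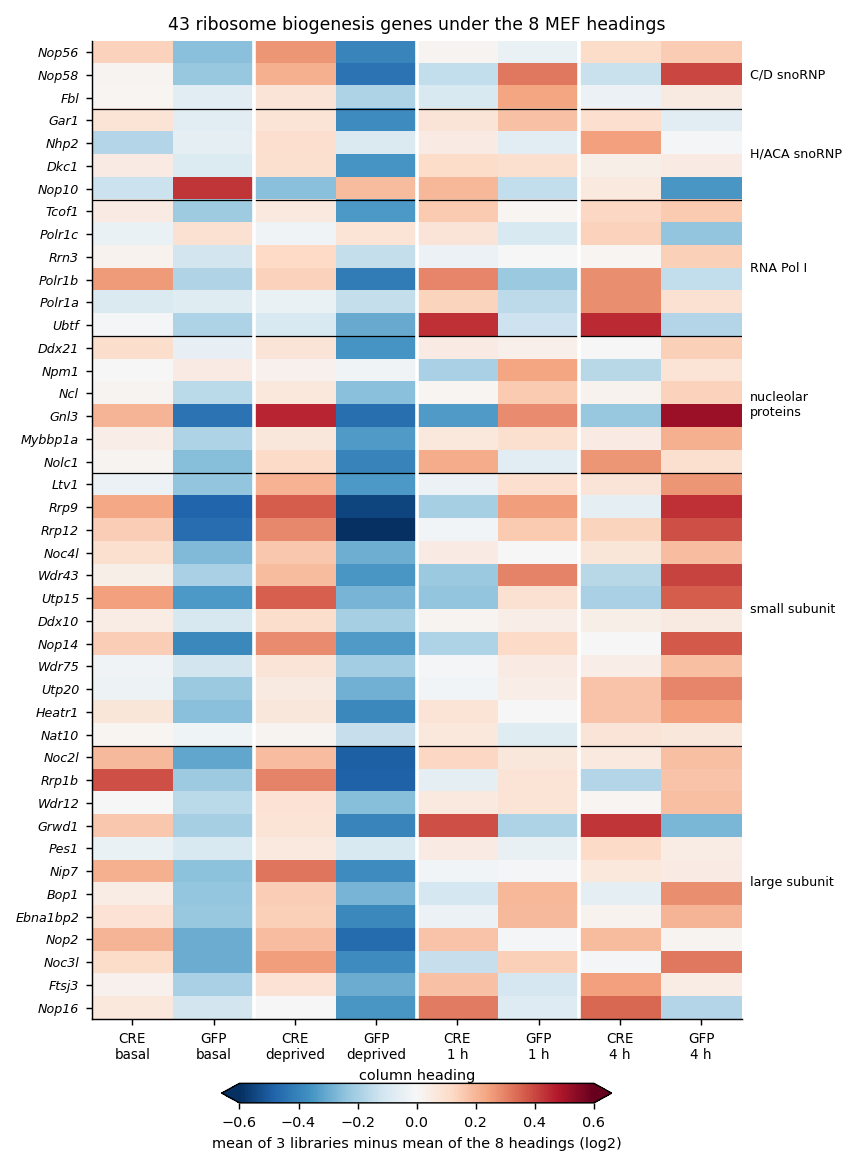
Mean log2 value of each of the 43 genes (rows, by role) under each of the 8 MEF headings (columns), drawn as the deviation from the gene's own mean over headings. The GFP deprived column is the lowest for 36 of 43 rows, and the rows of Nop10, Ubtf and Grwd1 run differently from most.

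Under the headings basal and deprived, most of the 43 were higher in CRE than in GFP libraries. At basal 33 were higher and 2 lower (limma, adjusted p under 0.05), against 29.7% higher and 28.6% lower of all 13914 tested genes, with a median of 0.23. In deprived libraries 40 were higher and 2 lower, against 32% higher and 30.6% lower of all genes, with a median of 0.45. Npm1 alone passed in neither direction there (0.05 ± 0.04 SE, adjusted p = 0.31). With each library shifted to a common median, 25 were higher and 4 lower at basal, and 36 higher and 2 lower in deprived libraries.

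Nop56 had 12.77, 12.89 and 12.83 under CRE basal, against 12.39, 12.41 and 12.52 under GFP basal. CRE libraries lay above GFP libraries, at 0.39 ± 0.05 (SE, adjusted p = 1.1e-08), and the deprived difference was 0.66 ± 0.05 (SE, adjusted p = 5.6e-14). Nop58 had 11.94, 12.04 and 11.95 under CRE basal, against 11.73, 11.69 and 11.79 under GFP basal, also apart, at 0.24 ± 0.04 (SE, adjusted p = 9.8e-06), with 0.66 in deprived libraries. Dkc1 had 11.55, 11.64 and 11.70 under CRE basal, against 11.51, 11.44 and 11.55 under GFP basal. Here GFP library 3 and CRE library 1 overlapped, the basal difference was 0.13 ± 0.04 (SE, adjusted p = 0.0108), and the call was lost without GFP basal library 2 or CRE basal library 3 and with each library shifted to a common median.

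Nop10 was lower. It had 9.63, 9.77 and 9.83 under CRE basal, against 10.31, 10.30 and 10.29 under GFP basal, every CRE library below every GFP library, at −0.56 ± 0.06 (SE, adjusted p = 2.3e-09), and −0.44 in deprived libraries. Its partner Nhp2 had a basal difference of −0.12 ± 0.06 (SE, adjusted p = 0.0888), not past the threshold. In the polymerase group, Polr1b had 10.89, 10.92 and 10.95 under CRE basal, against 10.41, 10.53 and 10.52 under GFP basal. It did not overlap, at 0.44 ± 0.04 (SE, adjusted p = 4.3e-10). Tcof1 had 11.74, 11.81 and 11.87 under CRE basal, against 11.48, 11.56 and 11.60 under GFP basal, apart as well, at 0.26 ± 0.04 (SE, adjusted p = 3.9e-06). Polr1c was lower, with a difference of −0.13 ± 0.04 (SE, adjusted p = 0.0127) at basal, a call lost without GFP basal library 1 or CRE basal library 1, and of −0.10 in deprived libraries, where it was lost in edgeR on recovered counts, with no filter, with no trend, and without GFP deprived library 1, 2 or 3 or CRE deprived library 1 or 2.

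Nucleostemin had the largest difference of the abundant nucleolar proteins. Gnl3 had 11.99, 12.12 and 12.11 under CRE basal, against 11.46, 11.35 and 11.47 under GFP basal. The groups were far apart, at 0.65 ± 0.05 (SE, adjusted p = 1.3e-13) and at 0.91 ± 0.05 (SE, adjusted p = 1.9e-17) in deprived libraries. Mybbp1a had 14.17, 14.23 and 14.24 under CRE basal, against 13.96, 13.96 and 14.04 under GFP basal, also apart, at 0.23 ± 0.03 (SE, adjusted p = 1.2e-06). Of the small-subunit factors 9 of 12 were higher at basal and all 12 in deprived libraries. Rrp12 had 10.76, 10.80 and 10.75 under CRE basal, against 10.14, 10.11 and 10.26 under GFP basal. CRE was above GFP in every library, at 0.60 ± 0.05 (SE, adjusted p = 9.1e-13) and, in deprived libraries, 0.93 ± 0.05 (SE, adjusted p = 1.5e-17). Nop14 had 11.68, 11.72 and 11.71 under CRE basal, against 11.13, 11.19 and 11.19 under GFP basal, without overlap, at 0.53 ± 0.04 (SE, adjusted p = 2.1e-12), and Rrp9, a protein of the small-subunit processome, had the largest basal difference of the 43, 0.71 ± 0.06 (SE, adjusted p = 5.3e-12).

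Of the large-subunit factors 11 of 12 were higher at basal and all 12 in deprived libraries. Nop2, an rRNA cytosine methyltransferase, had 12.03, 12.09 and 12.11 under CRE basal, against 11.57, 11.55 and 11.60 under GFP basal. Rrp1b had 10.98, 10.94 and 10.94 under CRE basal, against 10.30, 10.29 and 10.45 under GFP basal. For both, the CRE libraries lay above the GFP libraries, at 0.50 ± 0.04 (SE, adjusted p = 7.6e-13) for Nop2 and 0.60 ± 0.05 (SE, adjusted p = 2.2e-12) for Rrp1b. Pes1 had 0.05 ± 0.03 (SE, adjusted p = 0.21) and was the large-subunit gene that did not pass at basal.

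Under the headings 1 h and 4 h the 43 genes split. Under the 1 h headings 13 were higher and 14 lower in CRE than in GFP libraries, against 26.9% higher and 28.1% lower of all genes, and with each library shifted to a common median the split was 17 higher and 11 lower. Under the 4 h headings 12 were higher and 21 lower, against 30.8% higher and 29% lower of all genes, and without CRE 4 h library 3 the counts were 11 and 21. Gnl3, the most negative, had 11.57, 11.50 and 11.52 under CRE 1 h, against 12.11, 12.13 and 12.22 under GFP 1 h, with no overlap, at −0.62 ± 0.05 (SE, adjusted p = 4.3e-13) and, at 4 h, −0.74 ± 0.05 (SE, adjusted p = 4.6e-15). Wdr43, a small-subunit processome protein, had differences of −0.52 at 1 h and −0.57 at 4 h, and Nop58 of −0.46 and −0.53, all past the threshold. On the other side stood Grwd1, a WD-repeat protein of the large-subunit pathway, with 10.98, 11.09 and 10.99 under CRE 1 h, against 10.46, 10.39 and 10.49 under GFP 1 h. Its CRE libraries were the higher ones, at 0.57 ± 0.05 (SE, adjusted p = 1.6e-11) and 0.70 ± 0.05 (SE, adjusted p = 9.3e-14) at 4 h. Ubtf had 12.54, 12.61 and 12.65 under CRE 1 h, against 12.12, 12.01 and 11.98 under GFP 1 h, at 0.56 ± 0.04 (SE, adjusted p = 1.8e-13) and 0.62 ± 0.04 (SE, adjusted p = 1.0e-14).

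These 4 comparisons share no library, and the calls fell into a few patterns. Higher in CRE under basal and deprived and lower under 1 h and 4 h were 12 of the 43 (27.9%): Bop1, Ebna1bp2, Gnl3, Ncl, Noc3l, Nop14, Nop58, Rrp12, Rrp1b, Rrp9, Utp15 and Wdr43. The same pattern held for 2014 of 13914 tested genes (14.5%). Higher in CRE under all 4 headings were 7 of the 43 (16.3%), Ftsj3, Grwd1, Nolc1, Nop16, Nop2, Polr1b and Ubtf, against 245 of all genes (1.76%). Nop10 and Polr1c showed the reverse of the first pattern, as did 1592 of all genes (11.4%). By role, 5 of the 6 RNA polymerase I genes among the 43 were higher in CRE at 1 h with Rrn3 the exception. Of 11 other RNA polymerase I genes outside the 43, 2 were higher and 5 lower at 1 h, and 2 higher and 6 lower at 4 h. Of the 12 small-subunit factors 5 were lower and 1 higher at 1 h.

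**Figure D5:**
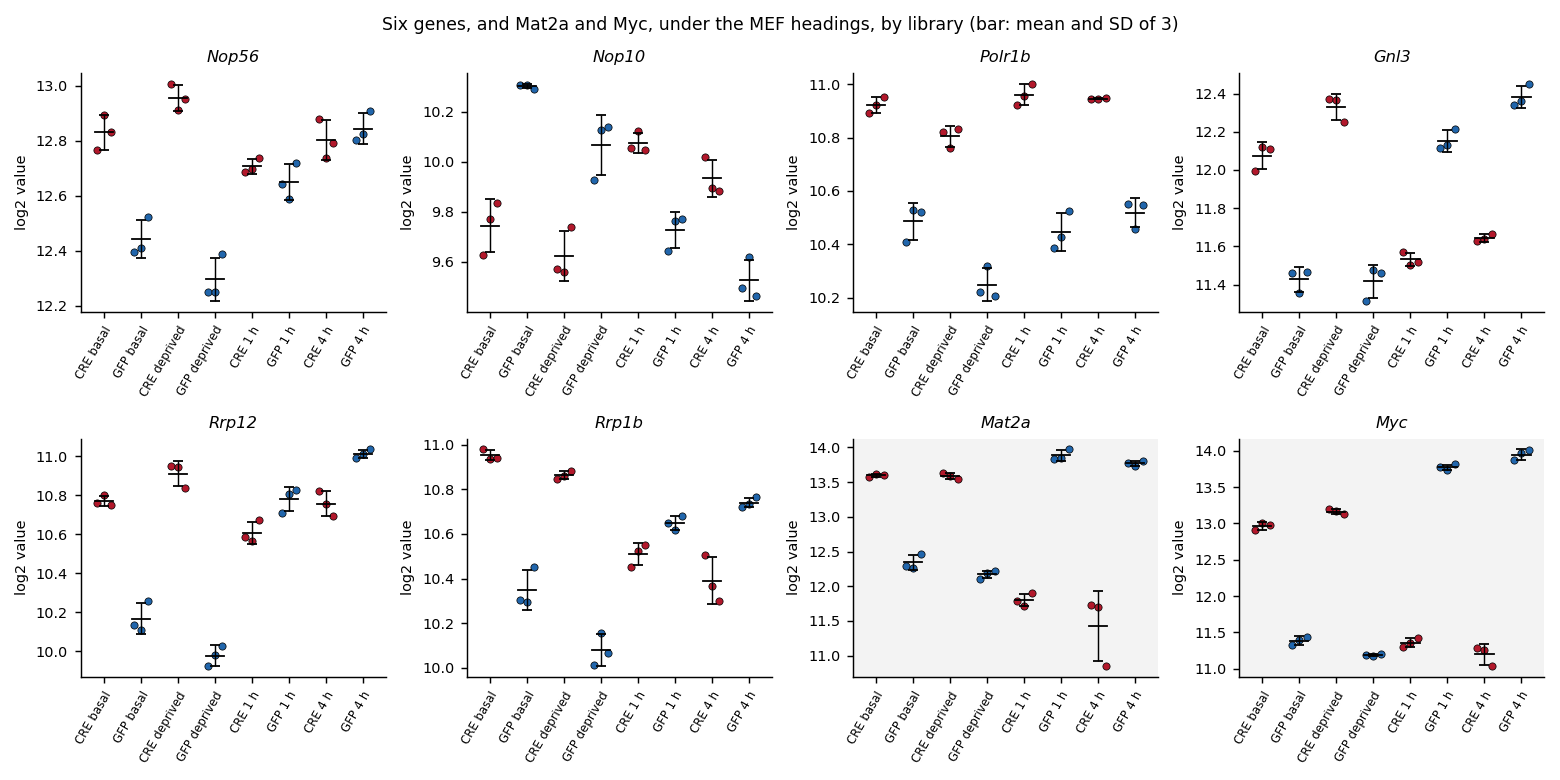
Log2 value in each MEF library under the 8 headings, CRE left of GFP in each medium, for Nop56, Nop10, Polr1b, Gnl3, Rrp12 and Rrp1b and, on grey, Mat2a and Myc, with bars for the mean and SD of 3. Gnl3 and Rrp12 are higher in CRE under basal and deprived and lower under 1 h and 4 h, as Mat2a and Myc are, while Polr1b stays higher in CRE throughout, and Nop10 runs the other way.

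The steps between headings reuse the libraries of the comparisons above, and each step shares a heading with the next. Deprived against basal headings gave a fall in GFP and a weaker opposite balance in CRE libraries. In GFP, 20 of the 43 were lower and none higher in limma (27 had an unadjusted p under 0.05, and edgeR on recovered counts also called none higher), against 10% higher and 13.6% lower of all genes. In CRE, 10 were higher and 1 lower, against 15% higher and 13.5% lower, and the 11 calls became 7 without CRE basal library 1 or CRE deprived library 1 or 2. Gar1 had 9.74, 9.88 and 9.95 under GFP deprived, against 10.22, 10.09 and 10.18 under GFP basal. Its deprived GFP libraries all lay below, at −0.31 ± 0.06 (SE, adjusted p = 0.0001). Ddx21 had 11.75, 11.75 and 11.89 under GFP deprived, against 12.06, 12.09 and 12.15 under GFP basal, again below, at −0.30 ± 0.04 (SE, adjusted p = 6.5e-07). Dkc1 (−0.27), Rrp1b (−0.27), Nop16 (−0.24), Polr1b (−0.24), Nop58 (−0.22), Rrp12 (−0.19), Wdr43 (−0.16) and Mybbp1a (−0.15) fell in GFP in every fit tried.

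Nop56 had 12.25, 12.25 and 12.39 under GFP deprived, against 12.39, 12.41 and 12.52 under GFP basal, lower in each deprived library, at −0.15 ± 0.05 (SE, adjusted p = 0.0188), and Tcof1 fell, with a difference of −0.13 ± 0.04 (SE, adjusted p = 0.0223). Nop56 lost its call with no trend in the fit and without GFP basal library 3 or GFP deprived library 1 or 2, and Tcof1 without GFP basal library 2 or 3 or GFP deprived library 2. In CRE the largest rise was that of Nhp2, with 11.03, 11.17 and 11.18 under CRE deprived, against 10.82, 10.88 and 10.85 under CRE basal. The deprived libraries lay above, at 0.28 ± 0.06 (SE, adjusted p = 0.000572). Gnl3 rose by 0.25, Ltv1 by 0.24 and Nop58 by 0.20, while Polr1b fell by 0.12 ± 0.04 (SE, adjusted p = 0.0419), a call lost without any 1 of the 6 libraries compared, with no filter and with no trend.

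The change from the basal to the deprived heading differed between CRE and GFP for 13 members. All 13 were positive (CRE minus GFP), against 4.78% of all genes in either direction. All 43 interaction values were positive, with a median of 0.17, against 0.01 over all tested genes. Nop58 changed by 0.20 in CRE and −0.22 in GFP libraries, an interaction of 0.41 ± 0.06 (SE, adjusted p = 4.4e-05). Ltv1 changed by 0.24 in CRE and −0.11 in GFP libraries (0.35 ± 0.09 SE, adjusted p = 0.014), and Rrp12 by 0.14 in CRE and −0.19 in GFP libraries (0.33 ± 0.07 SE, adjusted p = 0.00238). Dkc1, Gar1, Wdr43, Nhp2, Ddx21, Nop56, Gnl3, Nolc1, Noc3l and Mybbp1a also passed, with interactions from 0.18 to 0.32. The count was 6 without CRE basal library 1, 7 without GFP deprived library 1 and 8 without GFP basal library 3.

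In the step from deprived to 1 h, 37 of the 43 rose and 2 fell in GFP, against 30.7% and 28.8% of all genes, while in CRE 8 rose and 18 fell, against 30% and 30.1%. With each library shifted to a common median the CRE split was 11 and 15. Rrp12 had 10.71, 10.81 and 10.83 under GFP 1 h, against 9.92, 9.98 and 10.03 under GFP deprived. The 1 h GFP libraries were all above, at 0.80 ± 0.05 (SE, adjusted p = 7.4e-16). Gnl3 had 11.57, 11.50 and 11.52 under CRE 1 h, against 12.37, 12.37 and 12.25 under CRE deprived. Here the 1 h CRE libraries were all below, at −0.80 ± 0.05 (SE, adjusted p = 6.7e-16), and in GFP it rose by 0.74. Rising in GFP and falling in CRE were 18 of the 43 (41.9%), against 2606 of all genes (18.7%). Rising in both were Ftsj3, Grwd1, Nolc1, Nop16, Polr1b and Ubtf, 6 of the 43 (14%), against 453 of all genes (3.26%). Nop10 fell in GFP (−0.34) and rose in CRE (0.45).

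As an interaction this step differed for 36 of the 43, 32 negative and 4 positive (CRE minus GFP), against 66.5% of all genes in either direction. Gnl3 (−1.53 ± 0.07 SE, adjusted p = 1.1e-19), Rrp9 (−1.36 ± 0.08 SE, adjusted p = 1.3e-15) and Nop58 (−1.12 ± 0.06 SE, adjusted p = 3.9e-17) were the most negative. Nop10 (0.79 ± 0.09 SE, adjusted p = 1.3e-09), Ubtf (0.35 ± 0.06 SE, adjusted p = 1.9e-06), Polr1c (0.27 ± 0.06 SE, adjusted p = 0.000293) and Polr1a (0.18 ± 0.06 SE, adjusted p = 0.00534) were positive. Nop10 belongs to the H/ACA box group and the other 3 to the polymerase group. With a common median for each library the median interaction of all genes was 0.17, against 0.03 on the deposited values.

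From 1 h to 4 h the changes were smaller. In GFP 21 of the 43 rose and 5 fell, against 17.9% and 18.8% of all genes, with Utp15 (0.27) and Nop14 (0.26) the largest rises and Gar1 (−0.24) the largest fall. In CRE 5 rose (Nhp2, Nop14, Rrp12, Polr1a and Noc3l, by 0.13 to 0.20) and none fell in limma, against 13.4% and 12% of all genes. Of the CRE differences 10 had an unadjusted p under 0.05. With each library shifted to a common median 4 rose and 1 fell, the count was 2 without CRE 4 h library 3 and 3 without CRE 1 h library 2, and it was 1 in a fit of only the groups compared. The interaction called 4 members, Gar1 (0.26), Fbl (0.24) and Polr1c (0.20) positive and Utp15 (−0.23) negative, against 7.14% of all genes, and 2, Utp15 and Ddx21, both negative, without CRE 4 h library 3. With a common median the 4 calls were all negative. It called none without CRE 1 h library 2 or 3 or GFP 4 h library 1, and 1 without GFP 1 h library 1 or 3 or GFP 4 h library 2 or 3.

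Some of the 43 genes are also hosts of small nucleolar RNAs in the GENCODE annotation. Nop56 (5 of them), Nop58 (4), Ncl, Gnl3 and Wdr43 (3 each) and Dkc1 (1) carry 19 snoRNA genes. In fasted liver 5 of these 6 hosts were higher in Vps15LKO than in WT livers (median 0.72), with Dkc1 the exception, and 21 of the other 37 were higher and 2 lower (median 0.42). In the MEF step from deprived to 1 h all 6 rose in GFP. So did 31 of the other 37, with 2 falling, against 30.7% higher and 28.8% lower of all genes. Of the 6, 4 fell in CRE: Nop56, Nop58, Gnl3 and Wdr43. Among the other 37, 14 fell and 8 rose in CRE, against 30.1% lower and 30% higher of all genes. Poly(A) libraries do not measure the snoRNAs themselves.

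Related lists moved as follows in MEFs. Of 86 other ribosome assembly factors, 51 were higher and 14 lower in CRE against GFP at basal, 64 and 8 in deprived, 27 and 24 at 1 h and 26 and 31 at 4 h libraries, with the large-subunit factors Nol8 (0.84) and Lsg1 (0.62) among those leading at basal. Of 78 ribosomal protein genes, 69 were lower at basal and 58 in deprived libraries with none higher, 13 were higher and 9 lower at 1 h, and 74 were higher at 4 h. Ribosomal protein genes were thus lower under the basal and deprived headings, where most of the 43 were higher. Of 18 cell division markers 17 were lower at basal and 17 in deprived libraries, and 9 were higher at 1 h and 10 at 4 h. Of the 11 other RNA polymerase I genes 7 were higher and 1 lower at basal, led by Taf1c (1.06), and of 22 RNA polymerase III genes 7 were higher and 7 lower, with Brf2 at 1.08. Nucleotide synthesis genes gave 5 higher and 12 lower of 20 at basal, and the MYC network 6 higher and 2 lower of 10, with Myc at 1.58 ± 0.05 (SE, adjusted p = 9.5e-22) at basal and −2.41 ± 0.05 (SE, adjusted p = 1.4e-26) at 1 h.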

How the data were processed

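The authors deposited raw counts per gene for 12 liver libraries and variance-stabilised log2 values for 24 MEF libraries. Per the submitters' processing notes, the tools were HISAT2, Subread, DESeq2 and edgeR for liver, STAR 2.7.10b, featureCounts, DESeq2 and limma for MEFs, and the build was mm10. The liver table pools Ensembl and NONCODE entries, and NONCODE entries held 20.5 to 24.8% of counts. Of 48526 Ensembl IDs 48144 matched a symbol. No column was left unused (0). Differences in mapping, counting and strand settings between the 2 tables were not examined, and levels are not compared between them.

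Liver counts were tested with edgeR 4.0.16 (filterByExpr, TMM, quasi-likelihood test, all 12 libraries in 1 fit, 23875 genes), and MEF log2 values with limma 3.58.1 (trend, robust, 24 libraries in 1 fit, 13914 genes with a mean 1 or more over the lowest value in the table), in R 4.3.3. Fits were first tested on simulated data. Whole reads were recovered from the log2 values (100% of values whole within 0.01), and edgeR on them called 8237 of 14921 genes in CRE against GFP basal, of which 7890 were among limma's 8113. These reads served as an alternative, beside DESeq2 1.42.0, other scalings, no filter, and fits without each library. Adjusted p-values are Benjamini-Hochberg over all tested genes, threshold 0.05. A difference is significant relative to the spread of 3 libraries per group, and counts limit the precision of low genes.

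The 43 genes and all other lists were chosen with earlier results of these data known. In each role, the 2 genes with the smallest adjusted p in fasted Vps15LKO against WT, in fasting of WT, in GFP deprived against basal and in CRE against GFP basal were named with library values or changes. The other genes with library values were chosen after their values were seen, as were those of the 1 h interaction, where 36 passed and the most extreme are printed. Of other lists, up to 3 genes with the smallest p were named, besides Myc and Pik3r4, and Mat2a was added after the values were seen.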

Additional observations from a re-analysis of the deposited data

Results flagged for a closer look

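Genes appear here because a test of the difference itself, an interaction term, passed an adjusted p of 0.05 (edgeR in liver, limma in MEFs). In liver, the fasting change in Vps15LKO minus that in WT passed for 4 of the 43 genes: Nop56 at 0.89, Wdr12 at 0.88, Ddx21 at 0.87 and Mybbp1a at 0.62 on the log2 scale. That is 9.30% of the 43, against 12.1% of all tested genes in either direction, so the share of members is not above that background.

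In MEFs, the change of deprived over basal in CRE minus that in GFP passed for 13 of the 43 (30.2%), against 4.78% of all tested genes. It was 0.41 for Nop58, 0.35 for Ltv1, 0.33 for Rrp12, 0.32 for Dkc1, 0.31 for Gar1 and for Wdr43, and 0.30 for Nhp2. It was 0.27 for Ddx21 and for Nop56, 0.26 for Gnl3, 0.24 for Nolc1, 0.22 for Noc3l and 0.18 for Mybbp1a. The change of 1 h over deprived in CRE minus that in GFP passed for 36 of the 43, against 66.5% of all tested genes. The largest in size were Gnl3 (−1.53), Rrp9 (−1.36), Nop58 (−1.12), Rrp12 (−1.11) and Wdr43 (−1.06). The change of 4 h over 1 h in CRE minus that in GFP passed for 4 of the 43, against 7.14% of all tested genes. These 4 were Gar1 (0.26), Fbl (0.24), Utp15 (−0.23) and Polr1c (0.20). The MEF differences rest on the column headings, against which Mat2a ran.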

How the results depend on the processing

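Of 49 liver calls, 47 held in DESeq2, 48 among Ensembl genes alone, 49 with RLE factors, 47 with no filter and 44 with library sizes alone. Library sizes alone gave 16 members in fasting of WT, 28 in fed Vps15LKO against WT and 10 in the liver interaction, which no filter put at 9. Among members past the threshold in either fit they turned the signs of these: in fed Vps15LKO against WT Utp20 (0.36) and Fbl (0.30), and in fasted Vps15LKO against WT Ubtf (0.070), Rrn3 (0.40), Nat10 (0.42), Polr1b (0.39) and Polr1a (0.36). Fasting of Vps15LKO had 2 calls in DESeq2, 3 among Ensembl genes alone and 3 with no filter. Leaving out 1 library gave 2 to 5 members in fasting of WT, 0 to 1 in fasting of Vps15LKO, 10 to 16 in fed and 24 to 27 in fasted Vps15LKO against WT, and 1 to 5 in the interaction. No paired analysis was possible because the liver columns carry no replicate number.

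In MEFs, of 317 calls 310 held in edgeR on recovered counts, 298 with no filter, 297 with no trend, 304 with only the groups compared and 285 with a common median. Leaving out 1 library gave 7 to 10 members in CRE deprived over basal and 2 to 6 in CRE 4 h over 1 h (1 with only the groups compared). It gave 6 to 17 in the interaction of deprived over basal (7 with no trend) and 0 to 4 in the 4 h interaction. The last had 1 in edgeR on recovered counts, 0 with no filter, 0 with no trend and 0 with only the groups compared. With the replicate block it had 7, and the replicate block lost none of the 317 calls. Whether equal MEF numbers mark paired libraries was not settled. Of 84 same-number correlations 10 were over 0.1, with a median of 0.02. Of 168 correlations between other numbers 9 were over 0.1, with a median of −0.02. The cause of these shifts was not tested. Low liver counts, down to 26 per library, limit the liver differences.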
